A study of Mus musculus with 4 samples.

Results

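Nuclear receptors are transcription factors that share a zinc finger DNA-binding domain and, in most cases, a ligand-binding domain. The genes described here are the members of this family other than the corticosteroid receptors, as found in cultured lung endothelial cells, which form the inner lining of its vessels. They were taken as 41 listed gene symbols, without the glucocorticoid receptor Nr3c1, the mineralocorticoid receptor Nr3c2, Pparg, Nr1d1 and Nr1d2, and all 41 were among the 23997 genes of the expression table. Membership of the family, with no threshold on measured values, defined the list. Of the 41, 20 reached 1 FPKM (fragments scaled to transcript length and to library size) in at least 1 column of the table, and the same 20 did so in all 4 columns.

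The cells came from the C57BL/6 mouse strain and were grown with 10% serum. They received either a control siRNA or an siRNA against the glucocorticoid receptor (GR) for 48 h, each without or with dexamethasone (DEX), a synthetic ligand of GR, at 100 nM for 18 h. The 4 groups are therefore control siRNA alone, the same plus DEX, GR siRNA alone, and GR siRNA plus DEX, and sets of 4 values are given in that order. The series design gives 3 replicates per condition, but the table holds 1 column for each condition, so no spread between replicates and no test can be given, and each difference is one between single columns. The sources used here do not say whether a column is 1 library or a summary of several, how pure the cultures were or how far GR protein was lowered.

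The targeted gene followed the labels: Nr3c1 stood at 14.4, 14.3, 5.45 and 5.32 FPKM. The depth behind the columns was estimated from genes with few fragments at about 35.3, 50.5, 52.2 and 42.5 M fragments. All 10 endothelial markers examined were above 1 FPKM, among them Pecam1 (275 to 282 FPKM) and Cdh5 (384 to 436 FPKM). The leukocyte marker Ptprc and the mural marker Rgs5 were listed at 0 in every column. The leukocyte markers Lyz2 (0.0757 to 0.214 FPKM) and Cd79a (0.0927 to 0.211 FPKM) were low but above 0 in every column. So were the mural markers Pdgfrb (0.2 to 0.282 FPKM), Cspg4 (0.0564 to 0.218 FPKM) and Myh11 (0.0142 to 0.0437 FPKM). The 8 markers of fibroblasts and mural cells summed to 0.97 and 0.82 FPKM with control siRNA and to 3.48 and 3.74 FPKM with GR siRNA, with Dcn at 0.387, 0.297, 1.99 and 2.73 FPKM. Cd68, a macrophage marker that is not restricted to leukocytes, stood at 176, 161, 194 and 218 FPKM, beside Cd3e listed at 0. Of the lymphatic markers, Lyve1 was lower with GR siRNA, at 373, 348, 191 and 192 FPKM, while Prox1 was at most 0.179 FPKM and Ccl21a was listed at 0. Among the lung epithelial markers, Sftpb was higher in both GR siRNA columns, at 0.663, 0.875, 1.13 and 1.10 FPKM. Epcam, Cdh1, Sftpc, Scgb1a1 and Krt8 each stayed at or below 0.0873 FPKM. Sftpc was lower in both GR siRNA columns, but only at 0.0869, 0.0606, 0 and 0.0359 FPKM, values close to 0. The part of these differences in the results below was not tested. In RNA from a whole culture, fewer cells of a type and less RNA per cell cannot be told apart.

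As background, the family falls into a few working modes. Thyroid hormone, retinoic acid, vitamin D, PPAR and LXR receptors bind DNA as heterodimers with a retinoid X receptor (RXR) at repeats of the sequence AGGTCA, and switch genes on when lipid-soluble ligands arrive. Estrogen and progesterone receptors bind as homodimers, and orphan receptors such as the NR4A and COUP-TF groups act largely through how much of them is made. In endothelium, COUP-TFII (Nr2f2) is known for specifying veins, PPAR delta for fatty acid use and angiogenic responses, and NR4A1 for early responses to growth factors and stress.

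The RefSeq sequences just upstream of the transcription start are shown for the receptors whose transcripts differed most by siRNA, Ppard and Thrb, and for Rarg, the most abundant receptor that was lower in both GR siRNA columns. Each run is written 5′ to 3′ on the gene's strand in GRCm38.p6, and only bases outside annotated exons are printed. Capitals mark GGGCGG, the core of a GC box, and AGGTCA, the half-site of many nuclear receptors, read on either strand.

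Ppard, chr17:28232504-28232699, plus strand: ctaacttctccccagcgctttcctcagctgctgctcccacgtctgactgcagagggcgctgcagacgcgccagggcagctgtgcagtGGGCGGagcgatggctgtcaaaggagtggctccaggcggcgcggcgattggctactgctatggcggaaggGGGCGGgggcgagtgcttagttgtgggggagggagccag

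Thrb, chr14:17660710-17660891, plus strand, first of 2 starts: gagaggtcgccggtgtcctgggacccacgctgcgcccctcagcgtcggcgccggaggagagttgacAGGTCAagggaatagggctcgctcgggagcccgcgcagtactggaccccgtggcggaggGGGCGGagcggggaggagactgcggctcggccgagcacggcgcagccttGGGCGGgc

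Rarg, chr15:102257523-102257772, minus strand, first of 2 starts: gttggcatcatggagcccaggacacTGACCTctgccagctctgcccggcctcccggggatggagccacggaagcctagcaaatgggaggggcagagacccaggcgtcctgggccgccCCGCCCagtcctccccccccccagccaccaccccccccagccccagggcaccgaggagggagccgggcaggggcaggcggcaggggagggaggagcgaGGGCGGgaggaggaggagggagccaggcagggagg

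The Ppard run holds GGGCGG 2 times and AGGTCA not at all, whereas the Thrb and Rarg runs each hold AGGTCA 1 time and GGGCGG 2 times. Promoter sequences were at hand for 38 of the 41 receptors. Over the 250 bases upstream of every listed start, GGGCGG occurred in 24 of 57 windows of the receptors and in 32.7% of 32851 windows of all genes, and AGGTCA in 8 of 57 against 14.0%. TGTTCT, the half-site of GR, occurred in 4 of 57 windows of the receptors (of Esrrb, Nr5a2 and Thrb) against 16.1%. For Thrb it lay in the window of the second start, not in the run printed above. These matches describe letters in a short window and are not evidence of binding.

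The most abundant receptor transcript was the orphan receptor Nr4a1 (chromosome 15, 101254269 to 101274795), an immediate early gene also called Nur77. It stood at 61.2, 59.8, 64.4 and 61.9 FPKM, above 85.4% of the 11445 genes that reached 1 FPKM. Its level alone made up between 17.2% and 19.4% of the summed FPKM of the 41 receptors, which was 339, 347, 337 and 319.

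COUP-TFII and retinoic acid receptor gamma came next. Nr2f2 (chromosome 7, 70351944 to 70366735), the venous COUP-TFII, stood at 38.7, 40.3, 41.2 and 37.7 FPKM, and Rarg (chromosome 15, 102234938 to 102257517) at 39.9, 41.1, 34.8 and 33.5 FPKM. The ranges of these genes overlap, so their order is not settled by these columns. Nr2f6, a repressor of the COUP-TF group, LXR beta (Nr1h2) and Ppard formed the next tier, of overlapping ranges, between 20.8 and 34.0 FPKM, the highest value of Ppard exceeding the lowest of Rarg.

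A middle tier held RXR beta (Rxrb, 20.0 to 21.4 FPKM), retinoic acid receptor alpha (Rara, 16.2 to 19.9 FPKM), the estrogen-related receptor alpha (Esrra, 14.5 to 15.7 FPKM) and RXR alpha (Rxra, 13.8 to 16.1 FPKM). Among these 4, only the ranges of Esrra and Rxra overlapped, while Rxrb overlapped the lower end of Ppard. Thyroid hormone receptor alpha (Thra) followed at 8.76 to 9.63 FPKM and Nr4a2 at 5.93 to 7.95 FPKM.

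The 8 receptors left stayed below 7 FPKM. They were the testicular orphan receptors Nr2c1 (4.56 to 5.74 FPKM) and Nr2c2 (3.34 to 3.93 FPKM), thyroid hormone receptor beta (Thrb, 4.08 to 6.24 FPKM), COUP-TFI (Nr2f1, 2.52 to 3.28 FPKM), LXR alpha (Nr1h3, 2.05 to 2.21 FPKM), the germ cell nuclear factor Nr6a1 (1.91 to 2.20 FPKM), estrogen receptor alpha (Esr1, 1.71 to 2.22 FPKM) and the vitamin D receptor (Vdr, 1.42 to 1.60 FPKM). Ranges overlapped for Nr2c1 and Thrb and among Nr1h3, Nr6a1 and Esr1, and the highest value of Thrb exceeded the lowest of Nr4a2. Vdr, lowest in FPKM, rested on about 220 to 366 fragments per column, and Nr1h3 on about 152 to 211.

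**Figure D1:**
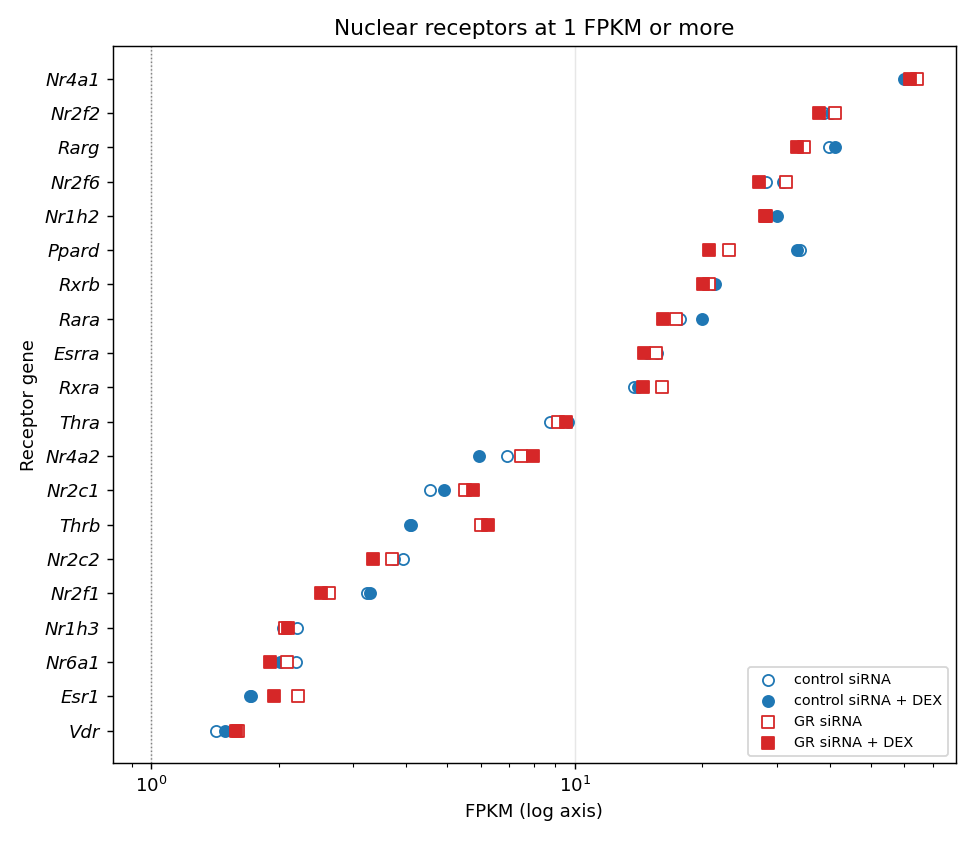
FPKM (log axis) of the 20 nuclear receptor genes at 1 FPKM or more, ordered by mean, with 1 point per column: circles stand for control and squares for GR siRNA, and filled symbols mark DEX. Nr4a1 lies at 59.8 to 64.4 FPKM and Vdr at 1.42 to 1.60 FPKM, and circles and squares are clearly apart for Ppard and Thrb.

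Isotypes of a receptor differed in level to different degrees. In the 4 columns Nr1h2 was 12.9, 14.7, 13.7 and 13.4 times Nr1h3 in FPKM, and Nr2f2 was 11.9, 12.3, 15.7 and 14.9 times Nr2f1. Nr4a1 was 7.79 to 10.1 times Nr4a2, and Rarg 2.01 to 2.25 times Rara. Other pairs were closer to each other, with Rxrb 1.29 to 1.54 times Rxra, Thra 1.52 to 2.35 times Thrb and Nr2c1 1.16 to 1.72 times Nr2c2.

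The RXR genes together gave 35.0, 35.5, 36.9 and 34.6 FPKM. The 13 listed receptors of the group that pairs with RXR (thyroid hormone, retinoic acid, PPAR, LXR, FXR, vitamin D, PXR and CAR receptors) gave 137, 142, 123 and 119 FPKM. Both GR siRNA columns were below both control siRNA columns for this sum, and Ppard and Rarg had the largest gaps in FPKM among its members.

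The other 21 receptors stayed below 1 FPKM in every column. Esrrb, Hnf4g and Nr0b1 were listed at 0 throughout, 7 had a value above 0 in all columns and 11 in some of them. The liver and gut receptors FXR (Nr1h4), PXR (Nr1i2), CAR (Nr1i3), HNF4 alpha (Hnf4a) and SHP (Nr0b2) were all in this class, as were the gonadal and adrenal factor Nr5a1 and the retinal receptor Nr2e3. So were PPAR alpha (Ppara, at most 0.00499 FPKM), the progesterone receptor (Pgr, at most 0.00272 FPKM) and estrogen receptor beta (Esr2, at most 0.0412 FPKM, about 7 fragments). Estrogen receptor alpha was thus the more abundant estrogen receptor in each column.

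Closest to the threshold from below was Nr4a3, the third NR4A gene, at 0.60, 0.58, 0.74 and 0.95 FPKM, and closest from above was Vdr. Nr1h4 stood at 0.26, 0.18, 0.37 and 0.48 FPKM, on about 19, 19, 39 and 41 fragments. The circadian orphan receptor Rora was at 0.0452, 0.0366, 0.00491 and 0.00808 FPKM, on about 17, 20, 3 and 4 fragments. For both genes the siRNA groups did not overlap, Nr1h4 being higher and Rora lower with GR siRNA, but few fragments decide such values. Nr4a3, on about 122 to 231 fragments, was also higher in both GR siRNA columns. So were Rorb (0.0975 and 0.0960 FPKM against 0.102 and 0.0996 FPKM), Esr2, Nr5a2 and Esrrg. Rorb rested on about 32 to 49 fragments per column, and Esr2, Nr5a2 and Esrrg on at most 7, so few fragments decide these values too. Of the 11445 genes at 1 FPKM or more, 32.3% were higher and 36.6% lower in both GR siRNA columns. The share among genes below 1 FPKM was not computed.

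Some values could hold reads of a neighbouring gene, since the labels and notes do not say whether counting used strand. Exons on the opposite strand cover 43.5% of the exon bases of Nr2c2 (by Mrps25, at 11.3 to 12.5 FPKM), 41.2% of Nr2f6 (by Ocel1, at 3.69 to 5.02 FPKM), 52.9% of Rarb (by Top2b) and 66.1% of Nr1i3 (by Tomm40l). Nr1d1, a clock repressor gene, covers 8.33% of the exon bases of Thra and stood at 3.30, 3.04, 5.44 and 6.10 FPKM. The part of these overlaps in the values was not tested.

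**Figure D2:**
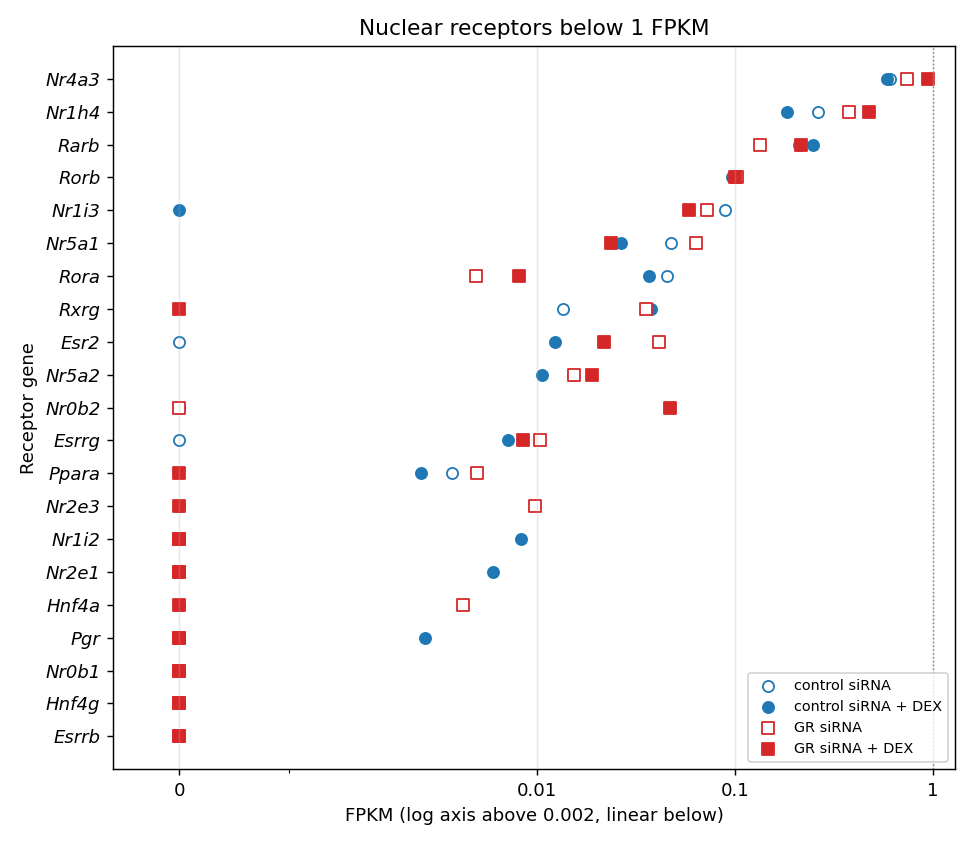
FPKM of the 21 nuclear receptor genes below 1 FPKM, on an axis that is logarithmic above 0.002 and linear below it, with circles for control and squares for GR siRNA, filled where DEX was given. Points at 0 lie on top of each other, so 1 visible symbol at 0 can stand for several columns; Rora is the gene whose squares (0.00491 and 0.00808 FPKM) lie farthest left of its circles (0.0366 and 0.0452 FPKM).

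Setting GR siRNA against control siRNA shows which receptors had more or less RNA when GR was lowered. Most receptors differed little, and the largest differences in both DEX states were those of Ppard, which was lower, and Thrb, which was higher. Differences are given as log2(FPKM + 1) of the first group minus the second, and a gene was counted when it differed by at least 1.5-fold on that scale. By this rule 0 of 20 receptors were higher and 0 lower without DEX, against 2.36% and 2.54% of 11325 genes. With DEX in both arms 0 were higher and 1 was lower, against 2.36% and 2.62% of 11344 genes.

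Ppard (chromosome 17, 28232700 to 28301474) encodes PPAR delta, a fatty acid sensor. Its level was 34.0 and 33.4 FPKM with control siRNA, without and with DEX, and 23.1 and 20.8 FPKM with GR siRNA. Both GR siRNA columns were below both control columns, and the control columns were within 0.03 of each other on the log2 scale.

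Its difference was −0.54 without DEX, an FPKM ratio of 0.679, and −0.66 with DEX, a ratio of 0.621. The standard error from counting alone was about 0.03 in each case, on roughly 2892 to 5533 fragments per column, and it leaves out any spread between cultures. A difference as low or lower was seen in 3.04% of genes without DEX and 2.02% with DEX. Ppard was the 1 receptor past 1.5-fold, and only with DEX.

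Thrb (chromosome 14, 17660261 to 18038090) encodes thyroid hormone receptor beta, one of the receptors that mediate the response to thyroid hormone. Control siRNA cells had 4.08 and 4.11 FPKM of it, and GR siRNA cells 6.01 and 6.24 FPKM. The groups did not overlap, and DEX made little difference within either siRNA.

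The difference of Thrb was 0.47 without DEX and 0.50 with DEX, with a counting error of about 0.06 and 0.05, and 3.62% and 3.32% of genes were as high or higher. The FPKM ratios were 1.47 and 1.52, so on the scale with 1 added to each value it stayed under 1.5-fold in both states. Thra, the other thyroid hormone receptor gene, stood at 8.76, 9.63, 9.13 and 9.52 FPKM, with overlapping groups. The ratio of Thra to Thrb was accordingly 2.15 and 2.35 with control siRNA and 1.52 and 1.53 with GR siRNA.

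**Figure D3:**
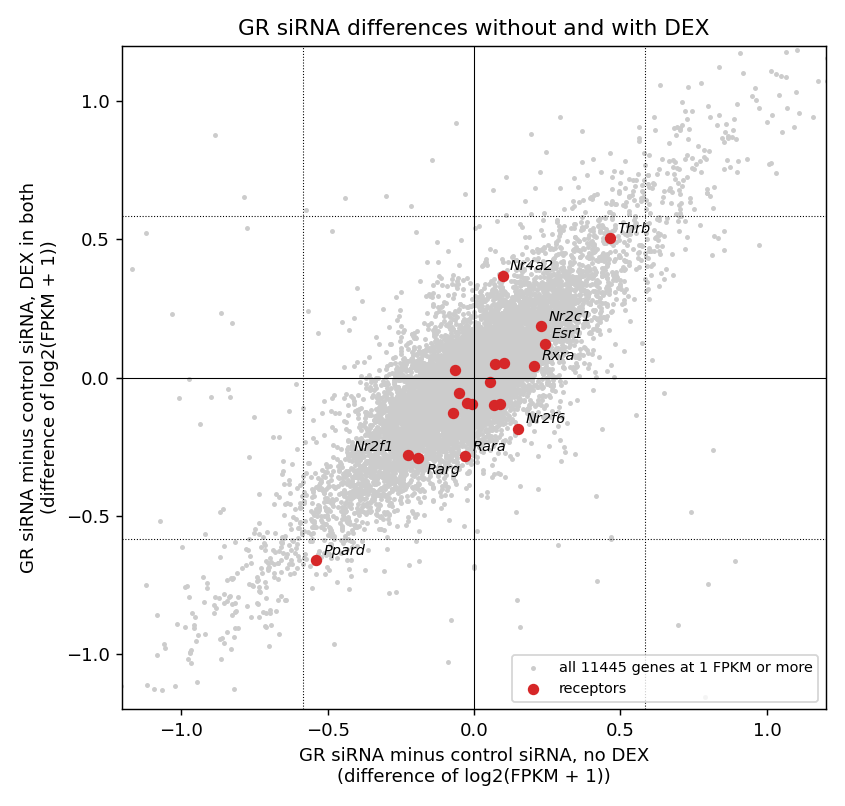
Difference of log2(FPKM + 1) between GR siRNA and control siRNA without DEX (horizontal) and with DEX in both arms (vertical) for the 20 receptors (red) and all 11445 genes at 1 FPKM or more (grey), with dotted lines at 1.5-fold; 179 genes lie outside the axes. Ppard lies at −0.54 and −0.66 and Thrb at 0.47 and 0.50, while the other receptors lie closer to 0.

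The retinoic acid receptors were slightly lower with GR siRNA. Rarg was 39.9 and 41.1 FPKM against 34.8 and 33.5 FPKM, with differences of −0.19 without DEX and −0.29 with DEX. Rara was 17.7 and 19.9 FPKM against 17.4 and 16.2 FPKM, so that its groups were separated mainly by the columns with DEX (−0.28), while the difference without DEX (−0.03) turned to 0.04 after upper quartile rescaling. The dimer partner Rxra was 13.8 and 14.1 FPKM against 16.1 and 14.5 FPKM.

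Among the orphan receptors, the separations were small and went both ways. Nr2f1 was 3.24 and 3.28 FPKM against 2.63 and 2.52 FPKM, with differences of −0.22 and −0.28. Nr2c1 was 4.56 and 4.92 FPKM against 5.52 and 5.74 FPKM, with 0.23 and 0.19, while the related Nr2c2 was 3.93 and 3.74 FPKM against 3.70 and 3.34 FPKM, with −0.07 and −0.13. Nr4a2, an immediate early gene also called Nurr1, was 6.92 and 5.93 FPKM against 7.48 and 7.95 FPKM, and its difference was 0.10 without DEX and 0.37 with DEX. Outside the orphan group, the estrogen receptor alpha gene Esr1 was 1.72 and 1.71 FPKM against 2.22 and 1.95 FPKM.

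The venous regulator Nr2f2 did not separate by siRNA, with 38.7 and 40.3 FPKM against 41.2 and 37.7 FPKM. Nor did Esrra, Thra, Nr1h3, Nr2f6 and Nr6a1. In all, both GR siRNA columns were above both control columns for 7 of 20 receptors and below them for 7, against 32.3% and 36.6% of the 11445 genes, so the share of separated receptors was near that of all genes. After upper quartile rescaling 7 were higher and 4 lower (Rarg, Ppard, Nr2c2 and Nr2f1), against 34.4% and 27.9% of all genes.

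The median difference over the 20 receptors was 0.06 without DEX and −0.07 with DEX, beside −0.01 in both states over all genes. The median size of the difference, regardless of sign, was 0.09 and 0.11 for the receptors and 0.13 and 0.13 for all genes. The sign was the same in both states, which share no column, for 15 of the 20 receptors (7 higher and 8 lower) and for 78.0% of all genes.

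DEX differences were small for the receptors and for all genes alike. In control siRNA cells their median size, regardless of sign, was 0.057 for the receptors and 0.050 for all genes. In GR siRNA cells it was 0.067 and 0.067. By the 1.5-fold rule 0 of 20 receptors were higher and 0 lower in control siRNA cells, against 0.686% and 0.392% of 11227 genes. The counts were again 0 and 0 in GR siRNA cells, against 0.531% and 0.645% of 11310 genes. In control siRNA cells the differences ran from −0.19 for Nr4a2 (6.92 to 5.93 FPKM) to 0.16 for Rara (17.7 to 19.9 FPKM). In GR siRNA cells they ran from −0.21 for Nr2f6 (31.6 to 27.2 FPKM) to 0.08 for Nr4a2 (7.48 to 7.95 FPKM).

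The median receptor difference with DEX was 0.02 in control siRNA cells, with 13 receptors above 0 and 7 below. Of all genes, 47.4% were above 0 there. Upper quartile rescaling put 17 receptors and 84.9% of all genes above 0, and moved the median to 0.10 for the receptors and 0.08 for all genes, so the signs of these small differences are not settled. In GR siRNA cells the receptor median was −0.06, with 5 above 0 and 15 below, against 48.1% of all genes above 0. The comparisons within the siRNA arms share no column with each other, but each shares its columns with the siRNA comparisons above.

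**Figure D4:**
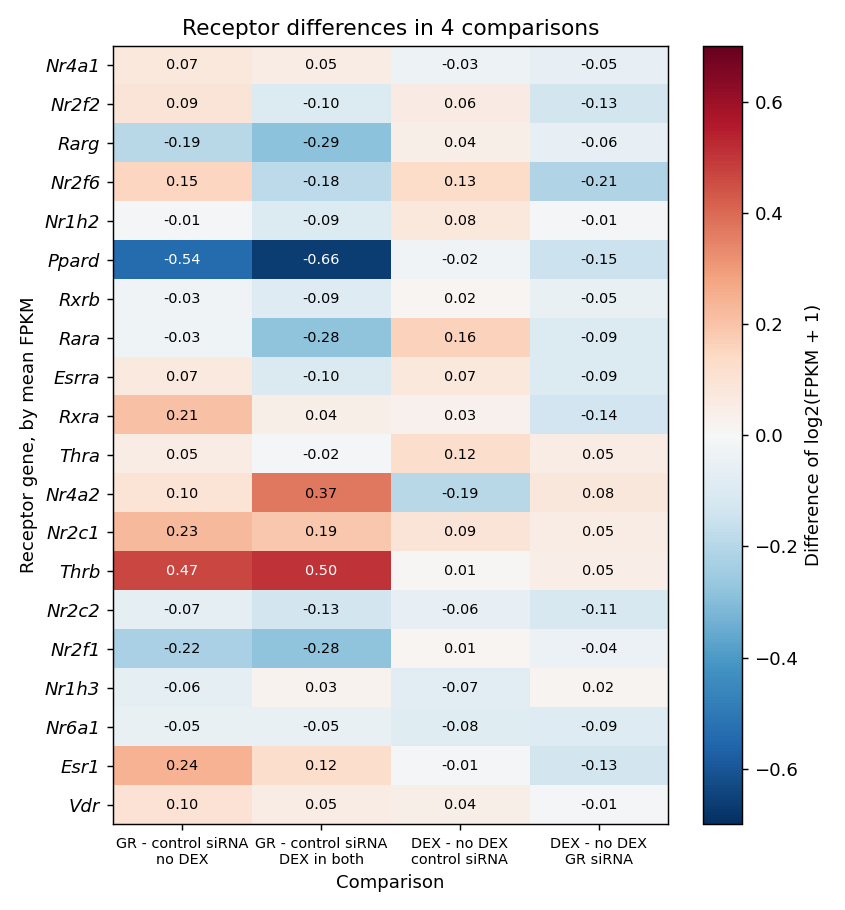
Differences of log2(FPKM + 1) for the 20 receptors, in rows by mean FPKM, in the 4 comparisons (columns); red is higher and blue lower in the first group named. The darkest cells are those of Ppard (−0.54 and −0.66) and Thrb (0.47 and 0.50) in the siRNA comparisons, and the DEX comparisons run from −0.21 to 0.16.

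The genes that these receptors are known to act on were read from lists of transport, metabolism and target genes. LXR targets, which serve cholesterol export and phospholipid remodelling, were higher with GR siRNA while the LXR transcripts were level: Nr1h2 stood at 28.5, 30.1, 28.3 and 28.1 FPKM and Nr1h3 at 2.21, 2.05, 2.07 and 2.10 FPKM. All 9 LXR targets at 1 FPKM or more, of 11 listed, were higher in both GR siRNA columns than in both controls, beside 32.3% of all genes. This count was also 9 after upper quartile and median rescaling, beside 34.4% and 35.8%. Past 1.5-fold higher were 3 of 9 without DEX and 4 of 9 with DEX, against 2.36% of all genes in each state, and none was lower. Their median difference was 0.40 in cells without DEX and 0.52 in those given it.

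Pltp, which encodes phospholipid transfer protein, was 50.2 and 57.4 FPKM against 109 and 112 FPKM. The cholesterol exporter Abca1 was 3.08 and 2.28 FPKM against 5.68 and 5.54 FPKM, and the small GTPase gene Arl4c was 8.55 and 9.31 FPKM against 15.8 and 14.8 FPKM. Lpcat3, encoding an enzyme that remodels membrane phospholipids, was 32.7 and 33.0 FPKM against 48.5 and 47.9 FPKM. The GR siRNA columns were above the controls for each of them. The summed fibroblast and mural markers were also higher in these columns, as given above, and their part in the LXR list was not tested.

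PPAR targets, genes of fatty acid oxidation and storage, were mostly higher while Ppard was lower. Of 13 at 1 FPKM or more, 9 were higher in both GR siRNA columns and 1 lower, against 32.3% and 36.6% of all genes, with medians of 0.14 without DEX and 0.15 with DEX. The lipoprotein lipase inhibitor Angptl4 was 4.98 and 5.91 FPKM against 12.9 and 12.2 FPKM, and Acot2, a mitochondrial acyl-CoA thioesterase gene, was 2.98 and 3.33 FPKM against 5.12 and 5.15 FPKM. These were the 2 past 1.5-fold higher without DEX, and Angptl4 alone was so with DEX, against 2.36% of all genes in each state. Acadvl and Cpt2, of mitochondrial fatty acid oxidation, had differences of 0.40 and 0.38 without DEX.

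Genes of thyroid hormone action went both ways. Of 4 at 1 FPKM or more, 2 were higher and 2 lower in both GR siRNA columns, against 32.3% and 36.6% of all genes. The medians were −0.03 without DEX (0.04 after upper quartile rescaling) and −0.07 with DEX. Past 1.5-fold lower was 1 of 4 in each state (Thrsp), against 2.54% and 2.62% of all genes, and none was higher. Thrsp, a lipogenic gene induced by thyroid hormone, was 18.1 and 18.1 FPKM against 3.96 and 4.08 FPKM, and Klf9, a transcription factor that responds to both thyroid hormone and glucocorticoid, was 42.3 and 41.8 FPKM against 30.9 and 29.2 FPKM. The corepressor gene Hr, a direct thyroid hormone target, was 10.7 and 11.1 FPKM against 14.5 and 14.7 FPKM, and the transporter gene Slc16a10 was 7.11 and 6.87 FPKM against 9.55 and 9.18 FPKM. The deiodinase genes Dio1 and Dio3 were listed at 0 in all columns.

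Retinoid genes went both ways. Of 6 at 1 FPKM or more, 2 were higher and 2 lower in both GR siRNA columns, shares near those of all genes. None was past 1.5-fold, against 2.36% of all genes higher in each state and 2.54% and 2.62% lower. The median was −0.06 without DEX, which upper quartile rescaling turned to 0.01, and 0.07 with DEX. The retinoic acid hydroxylase Cyp26b1 was 1.31 and 1.29 FPKM against 1.98 and 1.96 FPKM, and transglutaminase 2 (Tgm2), induced by retinoic acid, was 162 and 168 FPKM against 144 and 133 FPKM. For the estrogen-related receptors, 6 of 8 partners and targets at 1 FPKM or more were higher and 1 lower, against the same 32.3% and 36.6% of all genes, with medians of 0.09 and 0.14. The lower one, Atp5b, encoding a subunit of ATP synthase, was 941 and 953 FPKM against 610 and 603 FPKM.

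Venous and arterial genes were read because Nr2f2 is a venous regulator. Of 4 venous genes at 1 FPKM or more, Flt4 (27.96 and 27.2 FPKM against 20.3 and 17.9 FPKM), Nt5e and Ephb4 were lower and Nrp2 (23.2 and 21.7 FPKM against 33.8 and 31.8 FPKM) was higher in both GR siRNA columns. Of 9 arterial genes, 5 were higher and 3 lower in both, beside 32.3% and 36.6% of all genes, with the connexin gene Gja4 farthest up at 7.64 and 7.95 FPKM against 18.5 and 17.8 FPKM. The venous receptor gene Aplnr, below 1 FPKM and so not counted, was 0.116 and 0.135 FPKM against 0.811 and 0.628 FPKM. None of the 4 venous genes counted was past 1.5-fold in either state, and Gja4, higher, was the 1 of 9 arterial genes that was. Of all genes, 2.36% were past 1.5-fold higher in each state, and 2.54% without DEX and 2.62% with DEX were lower.

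Immediate early genes, which often move with NR4A genes, had medians of 0.03 without DEX and 0.01 with DEX over 8 at 1 FPKM or more; the second was −0.0022 after upper quartile rescaling. Fosb was 6.67 and 12.9 FPKM with control siRNA and 14.1 and 18.3 FPKM with GR siRNA, and Junb was 56.5 and 53.5 FPKM against 44.4 and 46.8 FPKM. None of 5 vitamin D genes and none of 6 FXR and HNF4 alpha targets reached 1 FPKM. Of 4 PXR and CAR targets, the drug transporter gene Abcb1a did, at 2.13 to 2.54 FPKM, and of 7 genes of estrogen metabolism and response, Hsd17b4 did, at 26.5 to 29.0 FPKM.

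**Figure D5:**
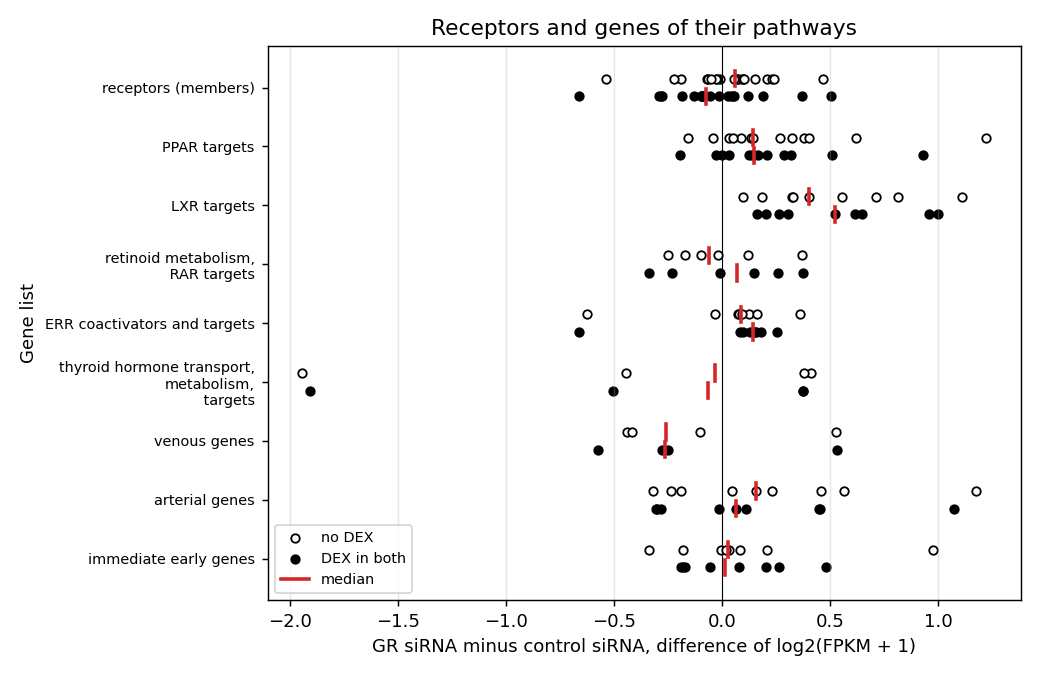
Difference of log2(FPKM + 1) between GR siRNA and control siRNA for the 20 receptors and for the genes at 1 FPKM or more in each pathway list with at least 4 such genes; open points are without DEX, filled points with DEX in both arms, and red bars are medians. All LXR target points lie right of 0, with medians of 0.40 and 0.52, while the receptors centre near 0.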

How the data were processed

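RNA sequencing of total RNA gave 1 gene table with 4 columns, 1 per condition. The values are FPKM per gene, deposited by the authors; TopHat2 and Cuffdiff with mm10 are named, per the submitters' processing notes, without versions, annotation, strand setting or how replicates were combined. Columns were assigned to conditions by name.

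The scale of every difference is log2(FPKM + 1), on which low genes differ by less, for genes at 1 FPKM or more in 1 of the columns compared. With 1 column per condition no test was run, and the limma fit planned for replicate columns was not used. Depth was estimated from the FPKM that 1 fragment gives in genes with 1 transcript of at least 1500 bases: 225 to 256 low genes per column fell in that peak. Relative depths of 0.677, 0.966, 1 and 0.814 agreed within 1% with those from ratios of low values (0.671, 0.962, 1 and 0.811). Fragments per gene are this depth times FPKM times the longest transcript, and are approximate. Coordinates and overlaps are from GENCODE M21 (mm10, 1-based), promoters from RefSeq (GRCm38.p6).

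The receptors and the 17 lists of 144 symbols (143 in the table), markers included, were chosen with earlier results of these data known, so no list is independent support. Any receptor could be named; of each list, up to 4 genes at 1 FPKM or more with the largest mean siRNA difference, and any marker. After values were seen, further genes were named: Dio1, Dio3, Aplnr and the genes that overlap receptors. Alternatives were pseudocounts of 0.1 and 0.5, no filter and 5 FPKM, upper quartile and median rescaling, and other folds; leaving out receptors with at least 10% of their exon bases in another gene (among those at 1 FPKM, Nr2c2 and Nr2f6) was added after seeing the data. Only the 1.5-fold calling step was tried on simulated data, with planted changes larger than that fold, and the other steps were not (Python 3.11.15, pandas 2.3.3).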

Additional observations from a re-analysis of the deposited data

Results flagged for a closer look

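Nr2f6, an orphan repressor of the COUP-TF group, was higher with DEX in control siRNA cells (28.35 to 31.04 FPKM, a difference of 0.13) and lower with DEX in GR siRNA cells (31.56 to 27.19 FPKM, −0.21), each by at least 0.1 on the log2(FPKM + 1) scale. The DEX difference in GR siRNA cells minus that in control siRNA cells was −0.33, and it was not tested. The overlapping gene Ocel1 stood at 4.15, 5.02, 3.69 and 3.99 FPKM in the 4 columns, and its part was not tested. No other receptor at 1 FPKM or more had opposite DEX differences of that size. The share of all genes that meet the same rule was not computed.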

How the results depend on the processing

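The count of receptors at 1 FPKM or more (20) was 20 when all 4 columns had to reach it, and 21, 19 and 14 at 0.5, 2 and 5 FPKM. In the siRNA comparisons the counts past 1.5-fold moved only with the fold or the added constant. At the lower fold threshold tried, 1 receptor was higher and 1 lower without DEX, and 2 were higher with DEX. At 2-fold, 0 were lower with DEX in place of 1. With 0.1 in place of 1 added to each value, 1 receptor (Thrb) was past 1.5-fold higher with DEX. The counts for DEX stayed at 0 under all alternatives run, also without Nr2c2 and Nr2f6, and no median of the receptors moved by 0.1 or crossed 0, but with no filter, over all 41, they lay between −0.01 and 0.00. Of 80 single differences 8 changed sign under upper quartile rescaling, 1 of them (Nr1h2 without DEX) also under median rescaling, none of them larger than 0.06 in size. No paired analysis was possible because each condition has 1 column. Counting error on the log2 FPKM ratio was near 0.03 for Ppard. For Nr1h3 it was 0.148 to 0.155, larger than each of the differences of Nr1h3. Apart from Nr4a3 (about 122, 169, 220 and 231 fragments), the receptors below 1 FPKM rest on few fragments. The spread between cultures is unknown for all.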
